A study of Mus musculus with 39 samples.

Results

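Inmt, Art2a-ps, Camk2n1, Camkk1, Epn2, Slc25a51, Grrp1, Klf3, Htr1b and Sepsecs are 10 genes of the 39676 in the count table of AB1-HA tumours. They were picked, with earlier results of the same tumours in view, because their expression differed clearly with tretinoin and because they lie outside retinoid metabolism. The choice rests on the comparisons with and without tretinoin, so those comparisons describe the genes and test nothing about them. AB1-HA is a murine mesothelioma cell line that carries influenza haemagglutinin, and it was grown under the skin of BALB/c mice. The study used mice of both sexes, aged 8 to 10 weeks, and the sex for each tumour is not known here. Each tumour was resected on day 9 and contributed 1 RNA-seq library.

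There were 4 treatment groups. PBS tumours (n = 10) came from control mice, which the methods describe as vehicle treated, and Tretinoin tumours (n = 9) from mice given 5 daily doses of 5 mg/kg by intraperitoneal injection from day 4. ICT tumours (n = 10) came from mice given immune checkpoint therapy on day 7, which was 100 µg each of antibodies against CTLA-4 and PD-L1. Tretinoin+ICT tumours (n = 10) had both, and by the outcome of the other tumour on the same mouse 6 were labelled responders and 4 non-responders. The text of the study gives other doses of tretinoin elsewhere, and those of the sample labels are used here. Its methods also describe repeated injections of the PD-L1 antibody, where the labels name day 7 only. How many came before resection is not in the labels. All tumours are from 1 cell line, so they stand for 1 tumour genotype.

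Tretinoin is all-trans retinoic acid, a metabolite of vitamin A. It binds the retinoic acid receptors RARα, RARβ and RARγ, which sit on DNA as heterodimers with RXR and switch from repressing to activating transcription when the ligand binds. The receptors recognise pairs of a short hexamer motif in the same orientation, and the genes that respond most reproducibly across tissues encode enzymes that remove retinoic acid or its precursors, such as Cyp26b1 and Dhrs3. The 10 genes described here have other roles: methylation of amines, ADP-ribosylation, calcium/calmodulin signalling, endocytosis, mitochondrial NAD import, transcriptional repression, serotonin signalling and selenoprotein synthesis.

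Promoter sequence was at hand for 6 of the 10 genes in the RefSeq windows (GRCm38.p6), which run from 250 bases before to 50 bases after a start site. Both strands were searched for the receptor motif in any of 4 spellings. Of the 32851 mouse windows, 16.3% held AGGTCA, while the spelling AGTTCA was in 4597 windows, GGGTCA in 13.7% and GGTTCA in 10.4% of them. At least 1 of the 4 was in 43.7%. Grrp1, Klf3 and Htr1b held a match, and Inmt, Camkk1 and Epn2 held none. Pairs in the same orientation with 1, 2 or 5 bases between occurred in 0.222%, 0.268% and 0.0974% of all windows and in none of the 6. Art2a-ps, Camk2n1, Slc25a51 and Sepsecs were not searched. The stretches below are those of the 3 genes with a match and of Inmt, the gene with the largest difference, written 5′ to 3′ on the strand of the gene with the motif in capitals. Bases that GENCODE places in an exon of the same gene are left out for Inmt, and only 30 bases around the match are given for Klf3, where 133 of the 250 bases lie in such an exon.

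Inmt, chr6:55175044-55175240, minus strand: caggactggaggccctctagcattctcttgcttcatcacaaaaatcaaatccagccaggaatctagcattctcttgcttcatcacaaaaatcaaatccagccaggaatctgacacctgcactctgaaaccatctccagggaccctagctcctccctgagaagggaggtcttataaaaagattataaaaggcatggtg
Grrp1, chr4:134254107-134254356, minus strand: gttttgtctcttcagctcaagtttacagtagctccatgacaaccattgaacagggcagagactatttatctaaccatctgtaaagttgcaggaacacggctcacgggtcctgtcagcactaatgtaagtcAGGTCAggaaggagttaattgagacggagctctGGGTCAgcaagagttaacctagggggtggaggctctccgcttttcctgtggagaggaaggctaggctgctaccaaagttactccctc
Htr1b, chr9:81633833-81634082, minus strand: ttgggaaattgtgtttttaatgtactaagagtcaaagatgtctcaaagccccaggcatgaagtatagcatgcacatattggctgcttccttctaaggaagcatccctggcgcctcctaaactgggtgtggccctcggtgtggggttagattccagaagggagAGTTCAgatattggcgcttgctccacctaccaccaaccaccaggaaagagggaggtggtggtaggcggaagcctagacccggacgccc
Klf3, chr5:64803452-64803481, plus strand: gctgcccctcccTGACCCtcccaccccggc

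In Grrp1 the 2 matches begin 120 and 87 bases before the start site, in Htr1b the match begins 88 bases before it, and in Klf3 it begins 57 bases before it on the opposite strand, so that GGGTCA reads there as TGACCC. The Klf3 match lies among the bases that GENCODE places in an exon of Klf3. A match is a string of letters and not a bound site.

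Library depth ranged from 14033046 to 37951183 counts, with a median of 18548168. Levels are given below in CPM, the counts of a gene per 1000000 counts of the library as scaled by edgeR's TMM factors, with the lowest, median and highest tumour of each group. Tumours 14 (PBS), 33 (Tretinoin), 63 and 82 (ICT) stood apart in immune markers, with a summed T cell marker level of 128.7, 192.6, 205.3 and 198.8 CPM, the highest of their groups but for tumour 82, which was second to tumour 63. The lowest tumours of these 3 groups had 59.3, 49.2 and 48.1 CPM. Values without them are given where they change a result. Of the 8 mesothelial and mesothelioma markers, only 5 were analysed here, and 1 of these, Upk3b, had a median count of 0. The first digit of the tumour names forms 8 series, 2 for each treatment and none shared between treatments, so treatments were also compared by single pairs of series.

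**Figure D1:**
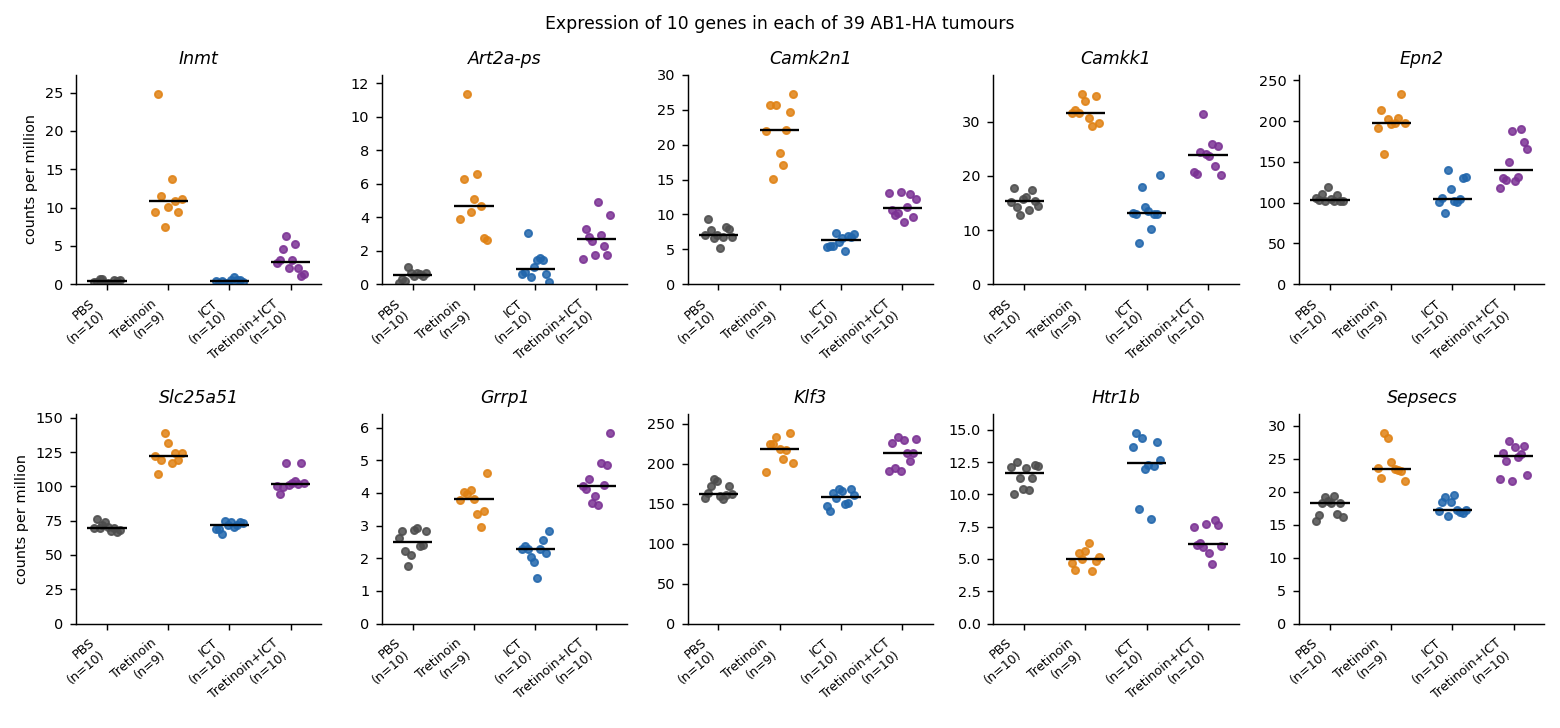
Levels in CPM (linear axis from 0) of the 10 genes in each of the 39 tumours, by treatment. Points are tumours and black lines are medians. Tretinoin and Tretinoin+ICT tumours lie above PBS and ICT tumours for 9 genes and below them for Htr1b, with overlap for Art2a-ps, Camk2n1 and Epn2.

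Inmt, indolethylamine N-methyltransferase, transfers methyl groups to tryptamine and related amines. It lies at chr6:55170626-55175043 on the minus strand (GRCm38, ENSMUSG00000003477.5). In PBS tumours it was near the floor of detection, at 0.00, 0.364 and 0.696 CPM, and the tumour with no read had a depth at which 3 counts equal 0.18 CPM. ICT tumours were as low, at 0.192, 0.414 and 0.924 CPM. Tretinoin tumours stood at 7.44, 10.8 and 24.9 CPM, and Tretinoin+ICT tumours at 1.04, 2.93 and 6.35 CPM. No tumour with tretinoin overlapped one without, and no Tretinoin+ICT tumour reached the lowest Tretinoin tumour. The median with tretinoin was 29.8 times that of PBS, a log2 fold change of 5.05 (SE 0.34), and in the presence of ICT it was 7.08 times that of ICT, a log2 fold change of 2.90 (SE 0.35).

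Art2a-ps belongs to the Art2 genes, whose products are ADP-ribosyltransferases held on the surface of T cells. GENCODE lists it as a polymorphic pseudogene, a gene that is coding in some strains only, at chr7:101552453-101560865 on the minus strand (ENSMUSG00000092517.1). PBS tumours had 0.102, 0.554 and 1.02 CPM, and ICT tumours 0.115, 0.886 and 3.07 CPM. Tretinoin tumours had 2.62, 4.70 and 11.4 CPM, and Tretinoin+ICT tumours 1.52, 2.73 and 4.89 CPM. Of the 19 tumours with tretinoin, 10 lay above all 20 without. The overlap with the others came from the ICT tumours, of which number 63 was the highest at 3.07 CPM, and number 33 was the highest of the Tretinoin tumours at 11.4 CPM. Log2 fold changes were 3.33 (SE 0.31) for Tretinoin against PBS and 1.33 (SE 0.35) for Tretinoin+ICT against ICT, and the second was 1.77 without tumours 14, 33, 63 and 82.

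Art2b is a nearby paralog, and the sequences of the 2 genes were not compared here. The handling of reads with several alignments is not stated, so the counting may have split reads between the genes. The values of both are uncertain in that respect. Art2b had a median of 0.106 CPM in PBS, 2.05 in Tretinoin, 0.177 in ICT and 0.897 in Tretinoin+ICT tumours. Within treatments Art2a-ps and Art2b correlated over the 39 tumours at r = 0.61 (rho = 0.64), or r = 0.53 without the 2 tumours farthest from the median of Art2b.

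Camk2n1 and Camkk1 act in calcium/calmodulin signalling. Camk2n1 encodes a small protein that inhibits calcium/calmodulin-dependent kinase II, and it lies at chr4:138454314-138460123 on the plus strand (ENSMUSG00000046447.3). PBS tumours had 5.24, 7.05 and 9.37 CPM and ICT tumours 4.76, 6.33 and 7.34 CPM. Tretinoin tumours had 15.03, 22.1 and 27.3 CPM and Tretinoin+ICT tumours 8.98, 10.9 and 13.2 CPM. All 9 Tretinoin tumours were above all 10 Tretinoin+ICT tumours, and 18 of the 19 tumours with tretinoin were above all without. Log2 fold changes were 1.61 (SE 0.11) against PBS and 0.86 (SE 0.10) against ICT.

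Camkk1 encodes a kinase that phosphorylates and activates calcium/calmodulin-dependent kinases I and IV, at chr11:73019008-73042073 on the plus strand (ENSMUSG00000020785.17). Its levels were 12.7, 15.3 and 17.8 CPM in PBS tumours, and they were more spread in ICT tumours, at 7.58, 13.1 and 20.1 CPM. Tretinoin tumours had 29.3, 31.7 and 35.2 CPM, a coefficient of variation of 6.50%, and Tretinoin+ICT tumours had 20.2, 23.9 and 31.5 CPM. No tumour with tretinoin overlapped one without, although the gap was narrow, from 20.09 to 20.16 CPM. Log2 fold changes were 1.08 (SE 0.06) against PBS and 0.81 (SE 0.13) against ICT.

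Epn2 encodes epsin 2, an adaptor that bends membrane and recruits cargo during clathrin-mediated endocytosis, at chr11:61517249-61579687 on the minus strand (ENSMUSG00000001036.17). Per kb of exon it had the highest level of the 10 genes in PBS tumours, with a median of 19.8 CPM per kb. On the CPM scale PBS tumours had 101.9, 103.5 and 119.1, ICT tumours 87.5, 105.0 and 140.4, Tretinoin tumours 159.3, 197.4 and 233.7, and Tretinoin+ICT tumours 117.9, 140.5 and 190.4. Tretinoin tumours were above all PBS and ICT tumours, whereas 5 of the 10 Tretinoin+ICT tumours lay within the ICT range. The ratio of medians was 1.91 for Tretinoin over PBS and 1.34 for Tretinoin+ICT over ICT.

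Slc25a51 encodes the carrier that brings NAD into mitochondria, and it lies at chr4:45395923-45408766 on the minus strand (ENSMUSG00000045973.18). Its levels varied little within groups. They were 66.8, 69.6 and 76.0 CPM in PBS tumours, 65.6, 71.8 and 74.7 in ICT tumours, 109.1, 122.3 and 139.0 in Tretinoin tumours and 94.4, 102.0 and 117.4 in Tretinoin+ICT tumours. The coefficient of variation was 4.18% in PBS and 4.03% in ICT tumours. The median was 1.76 times as high in Tretinoin as in PBS and 1.42 times as high in Tretinoin+ICT as in ICT tumours, with no overlap.

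Grrp1, a gene of the FAM110 family, lies at chr4:134251110-134254106 on the minus strand (ENSMUSG00000050105.5). It was low throughout, with 1.77, 2.50 and 2.93 CPM in PBS tumours, 1.38, 2.27 and 2.83 in ICT tumours, 2.95, 3.81 and 4.62 in Tretinoin tumours and 3.63, 4.23 and 5.84 in Tretinoin+ICT tumours. The tumours with and without tretinoin did not overlap. Its order differed from that of the genes above, since Tretinoin+ICT tumours had the highest median. The log2 fold change was 0.60 (SE 0.11) against PBS and 0.99 (SE 0.12) against ICT.

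Klf3 encodes a zinc finger factor of the Krüppel-like family that represses transcription, at chr5:64803388-64832901 on the plus strand (ENSMUSG00000029178.14). PBS tumours had 155.9, 162.4 and 181.0 CPM, ICT tumours 140.6, 158.9 and 168.2, Tretinoin tumours 189.9, 218.5 and 238.8, and Tretinoin+ICT tumours 191.0, 213.3 and 233.4. The gene is abundant and the difference is small, with ratios of medians of 1.35 and 1.34, yet no tumour with tretinoin fell into the range of those without. Klf3 shares 404 exon bases with Gm20033 on the opposite strand, which had a mean count of 50.1 against 3541 for Klf3, and since the strand mode of the counting is not stated their reads cannot be told apart there.

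Sepsecs encodes the enzyme of the last step of selenocysteine synthesis on its transfer RNA, at chr5:52640087-52669708 on the minus strand (ENSMUSG00000029173.12). PBS tumours had 15.5, 18.2 and 19.3 CPM, ICT tumours 16.4, 17.2 and 19.4, Tretinoin tumours 21.5, 23.5 and 28.9, and Tretinoin+ICT tumours 21.6, 25.4 and 27.7. As for Klf3, the difference was small and without overlap, with log2 fold changes of 0.47 (SE 0.06) against PBS and 0.49 (SE 0.06) against ICT.

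Htr1b, a serotonin receptor that couples to inhibitory G proteins, was the gene of the 10 that was lower with tretinoin. It lies at chr9:81628291-81633828 on the minus strand (ENSMUSG00000049511.5) and shares 852 exon bases with D430036J16Rik on the opposite strand, which had a mean count of 1.15 against 165 for Htr1b. PBS tumours had 10.0, 11.7 and 12.5 CPM and ICT tumours 8.10, 12.5 and 14.8 CPM. Tretinoin tumours had 4.10, 5.04 and 6.25 CPM and Tretinoin+ICT tumours 4.64, 6.16 and 8.04 CPM. The highest tumour with tretinoin, at 8.04 CPM, was just under the lowest without, at 8.10 CPM. The log2 fold change was -1.18 (SE 0.08) against PBS and -0.92 (SE 0.12) against ICT.

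Over all genes that passed the filter on low counts, 20.4% passed an adjusted p of 0.05 (edgeR's quasi-likelihood test, Benjamini-Hochberg) in Tretinoin against PBS and 1.99% in Tretinoin+ICT against ICT. Of the 10 genes, 7 had no overlap between the 19 tumours with tretinoin and the 20 without, as had 16 of 14977 genes (0.107%). The other 9 of these 16 were Cyp26b1, Dhrs3, Gm43621, Medag, Nrip1, Nupr1, Pgpep1, Rap2b and S1pr1. Since the genes were picked on this contrast, these shares say how rare the pattern was and not that the set is enriched.

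The genes were picked for a difference with tretinoin, so the order of the groups is a description. It is fixed in advance wherever tumours with and without tretinoin do not overlap. In each gene the order placed PBS and ICT next to each other, and their means differed by less than the larger SD of the pair in all 10. Tretinoin and Tretinoin+ICT were also neighbours in all 10. Their means differed by more than the larger SD for Inmt, Camk2n1, Camkk1, Epn2, Slc25a51 and Htr1b, and by less for Art2a-ps, Grrp1, Klf3 and Sepsecs.

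**Figure D2:**
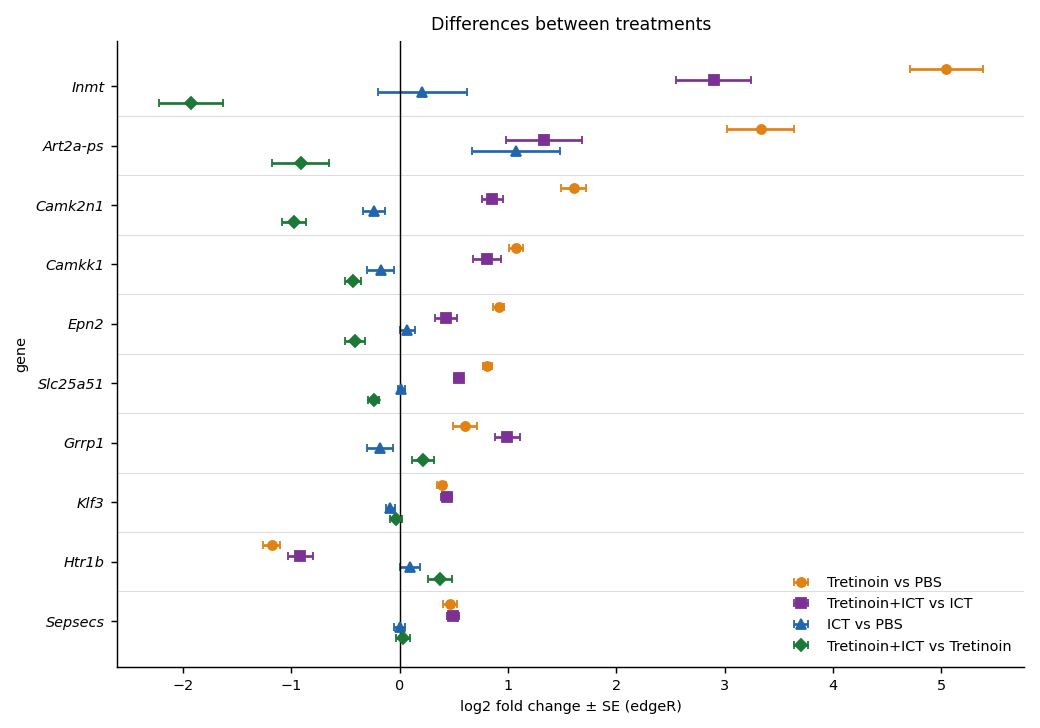
Log2 fold change with its standard error (horizontal axis, edgeR) for each gene in 4 comparisons. Circles and squares are the comparisons that chose the genes and are a description, triangles are ICT against PBS, and diamonds are Tretinoin+ICT against Tretinoin, which lie left of 0 for Inmt, Art2a-ps, Camk2n1, Camkk1, Epn2 and Slc25a51 and right of 0 for Htr1b. The Inmt triangle comes from a fit without the filter on low counts.

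The comparison of Tretinoin+ICT with Tretinoin asks whether the levels under tretinoin differed when checkpoint antibodies were added on day 7. Inmt, Art2a-ps, Camk2n1, Camkk1, Epn2 and Slc25a51, all higher with tretinoin, were lower in Tretinoin+ICT tumours, and Htr1b, lower with tretinoin, was higher. In total 7 of the 10 genes passed, 6 lower and 1 higher, where 21.4% of all 14393 genes passed, 9.01% lower and 12.3% higher. Both groups of this comparison, the 9 Tretinoin and the 10 Tretinoin+ICT tumours, also stand in the comparisons that chose the genes. The count and the adjusted p-values below are therefore not independent of the choice.

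Inmt fell by 1.93 on the log2 scale (SE 0.30, adjusted p = 0.00043, edgeR), to 0.263 times the Tretinoin level, and it was the only one of the 10 that also passed a fold change of 2, as 2.08% of all genes did. Camk2n1 fell by 0.97 (SE 0.11, adjusted p = 2.33e-05), to 0.509 times, and had no overlap between the groups. Art2a-ps fell by 0.91 (SE 0.26, adjusted p = 0.0203), or by 0.69 without tumours 14, 33, 63 and 82. The decreases of Camkk1, Epn2 and Slc25a51 were smaller, at -0.43 (SE 0.07, adjusted p = 0.000888), -0.41 (SE 0.09, adjusted p = 0.00658) and -0.24 (SE 0.05, adjusted p = 0.00334). Htr1b rose by 0.37 (SE 0.11, adjusted p = 0.0222), but without the filter on low counts its adjusted p was 0.0505. Grrp1 had 0.22 (95% interval 0.01 to 0.42, adjusted p = 0.133), Klf3 -0.03 (-0.14 to 0.08, adjusted p = 0.69) and Sepsecs 0.03 (-0.10 to 0.16, adjusted p = 0.733).

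Retinoid enzymes are shown beside them for scale. In the same comparison Cyp26b1 fell by 1.27 (SE 0.15, adjusted p = 4.58e-05) and Dhrs3 by 0.78 (SE 0.09, adjusted p = 2.29e-05), and of the 9 retinoid genes measured 6 were lower and 1 was higher. The list was chosen with earlier results known. Compared by series, the decrease of Inmt ranged from -2.31 to -1.58, that of Camk2n1 from -1.05 to -0.91 and that of Art2a-ps from -1.36 to -0.38 over the 4 pairs of series. All 7 genes kept their direction in each pair, and at about 5 tumours a side 1 to 3 of the 10 passed, Camk2n1 in each pair and Art2a-ps in none. The share of all genes that passed in these pairs was not counted, so this count has no background and cannot be called high or low.

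The tretinoin effect with ICT minus that without ICT, over all 39 tumours, contains the contrasts that chose the genes and is given with no test. It was -2.14 (SE 0.53) for Inmt, -2.0 (SE 0.49) for Art2a-ps, -0.75 (SE 0.15) for Camk2n1, -0.49 (SE 0.12) for Epn2, -0.27 (SE 0.06) for Slc25a51 and -0.27 (SE 0.15) for Camkk1. Htr1b had 0.27 (SE 0.14), Grrp1 0.39 (SE 0.15), Klf3 0.04 (SE 0.07) and Sepsecs 0.02 (SE 0.08). The value of Art2a-ps was -1.49 without tumours 14, 33, 63 and 82.

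Whether the antibodies alone moved the genes is asked by ICT against PBS, whose tumours of both groups also stand in the comparisons that chose the genes. None of the 9 genes tested passed (edgeR), where 21.2% of all 14155 genes did, and 3 of them, Art2a-ps, Camk2n1 and Klf3, had an unadjusted p below 0.05, as had 36.4% of all genes. Art2a-ps had the largest value, 1.08 (95% interval 0.28 to 1.88, adjusted p = 0.0629), and passed with DESeq2 (adjusted p = 0.0441) and with all tumours in 1 fit (adjusted p = 0.0395), while without tumours 14, 33, 63 and 82 it was 0.79 (adjusted p = 0.163). Camk2n1 had -0.24 (adjusted p = 0.0921) and Klf3 -0.09 (adjusted p = 0.136). Htr1b had 0.10 (adjusted p = 0.469), and 0.20 (adjusted p = 0.0377) without tumours 14, 33, 63 and 82. For Slc25a51 and Sepsecs the intervals were narrow, from -0.05 to 0.08 and from -0.10 to 0.10. Inmt fell under the filter on low counts and was not tested.

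**Figure D3:**
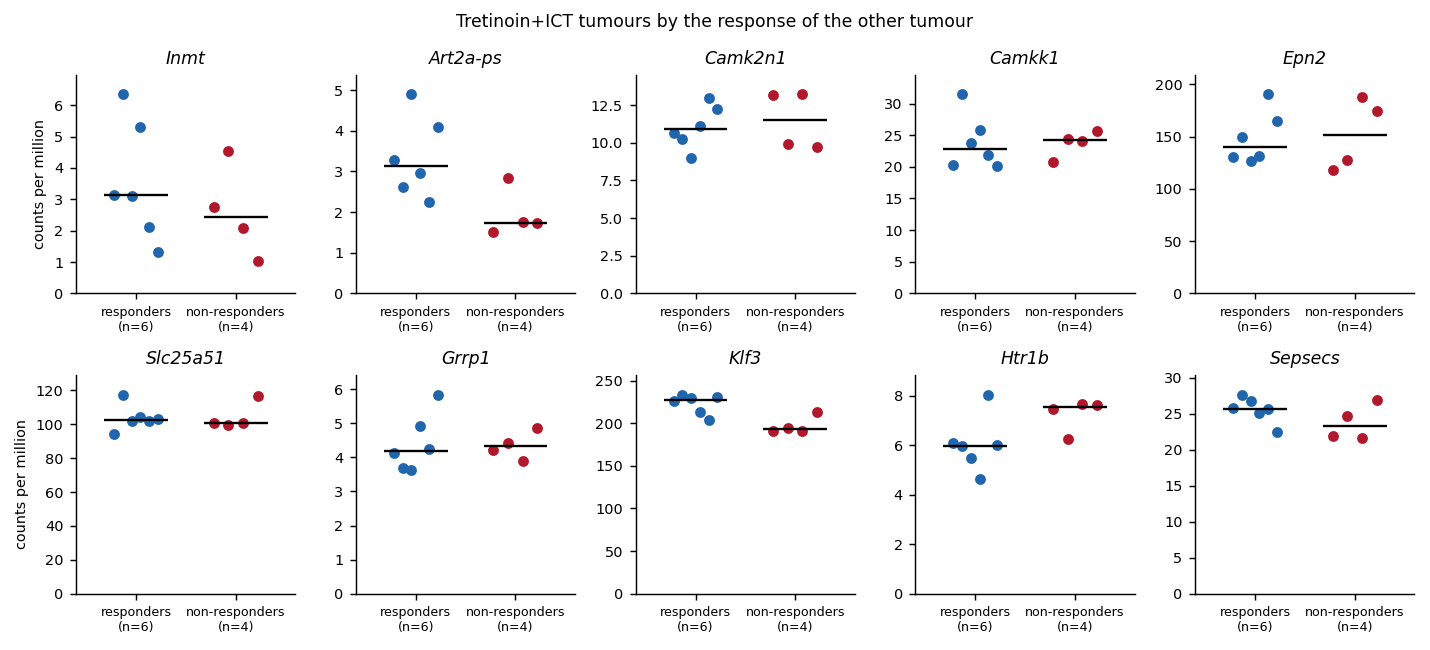
Levels in CPM (linear axis from 0) of the 10 genes in Tretinoin+ICT tumours of 6 responders and 4 non-responders. Points are tumours and lines are medians. For each gene the ranges of the responders and the non-responders overlap.

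Among Tretinoin+ICT tumours, none of the 10 genes passed between responders and non-responders (edgeR), and neither did any of the 14604 genes tested (0.0%), of which 3302 had an unadjusted p below 0.05. With DESeq2, 157 genes passed there with a fold change of at least 2. Art2a-ps had 2.25, 3.12 and 4.89 CPM in responders and 1.52, 1.72, 1.75 and 2.85 CPM in non-responders. The ranges overlapped through the highest non-responder, tumour 23, and the log2 difference was 0.79 (SE 0.26, adjusted p = 0.115). It passed with DESeq2 (adjusted p = 0.0477) and without responder tumour 43 (adjusted p = 0.0473), and over all 16 fits its adjusted p ranged from 0.0473 to 0.308. Klf3 had 203.2, 227.8 and 233.4 CPM in responders, and 3 of the 4 non-responders lay below that range. Its log2 difference was 0.18 (SE 0.06, adjusted p = 0.124). Inmt had 0.45 (SE 0.47), and this rested on single tumours, with 0.185 without tumour 44, 0.205 without tumour 24, 0.295 without tumour 42 and 0.832 without tumour 23, and it was 0.905 with series as a block. The other 7 genes lay between -0.26 and 0.11.

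Each gene was also set beside the other genes of its pathway or family, in lists of genes that are not among the 10. The counts of these lists are to be read against all genes tested, of which 11.5% rose and 8.95% fell in Tretinoin against PBS. Of 4 ADP-ribosyltransferase genes tested in Tretinoin against PBS, Art1, Art3 and Art5 did not pass. Art2b had log2 fold changes of 3.84 (SE 0.28) there and of 1.89 (SE 0.37) in Tretinoin+ICT against ICT, which are a description, since it was kept by the filter on low counts through the tumours with tretinoin and may share reads with Art2a-ps. It fell by 1.01 in Tretinoin+ICT against Tretinoin (SE 0.20, adjusted p = 0.0027). Among 13 genes of NAD synthesis, use and transport, Cd38, which encodes a surface enzyme that degrades NAD, rose by 2.39 (SE 0.22, adjusted p = 4.8e-07), and Nadk2, a mitochondrial NAD kinase, fell by 0.18 (SE 0.05, adjusted p = 0.0153).

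Around Camk2n1 and Camkk1, 4 of 10 genes fell and none rose, among them Camkk2, the paralog of Camkk1, by 0.19 (SE 0.05, adjusted p = 0.00679), Camk2d by 0.15 and Calm2 by 0.15. Around Epn2, 2 of 16 genes of epsins and clathrin adaptors rose, a share near that of all genes, Epn1 by 0.21 (SE 0.05, adjusted p = 0.00852) and Hip1 by 0.21 (SE 0.07, adjusted p = 0.0261). In ICT against PBS 5 of these 16 rose, where 14.1% of all genes did, and in Tretinoin+ICT against Tretinoin 6 rose, where 12.3% did, among them Clta, a clathrin light chain, by 0.34 (SE 0.06, adjusted p = 0.001) and 0.42 (SE 0.10, adjusted p = 0.00703). Epn2 itself had 0.07 in the first and was lower in the second.

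Of 8 other Krüppel-like factors, 3 fell with tretinoin, Klf16 by 0.34, Klf13 by 0.27 and Klf11 by 0.21, and none rose. With ICT, both with and without tretinoin, Klf2, Klf4 and Klf13 rose, Klf13 by 1.03 (SE 0.13, adjusted p = 5.24e-05) in Tretinoin+ICT against Tretinoin. Of 7 genes of serotonin signalling other than Htr1b, 3 fell with tretinoin: Slc6a4, the serotonin transporter, by 0.62 (SE 0.21, adjusted p = 0.0455), Tph1, the enzyme that starts serotonin synthesis, by 0.37 (SE 0.11, adjusted p = 0.0257), and Maoa, which breaks serotonin down, by 0.24 (SE 0.08, adjusted p = 0.0397). Slc6a4 also fell in Tretinoin+ICT against ICT, by 0.87 (SE 0.21, adjusted p = 0.0263).

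Beside Sepsecs, 1 of 10 genes of selenocysteine synthesis and insertion rose with tretinoin, Secisbp2l by 0.20 (SE 0.06), and 3 fell, Pstk by 0.16, Xpo1 by 0.15 and Sephs1 by 0.12. Of 18 selenoproteins 3 fell, Selenoh by 0.32, Selenoi by 0.25 and Txnrd2 by 0.18, and none rose. Of all genes 20.4% passed in either direction, 8.95% lower and 11.5% higher. Beside Inmt, 3 of 10 genes of other methyltransferases and the methyl donor cycle fell, Ahcy by 0.23, Mat2a by 0.18 and Ahcyl1 by 0.16, and none rose. Both FAM110 genes measured beside Grrp1 failed to pass. The median log2 fold change in Tretinoin against PBS was between -0.37 and 0.15 for these 10 lists and 0.01 over all genes, and it was 1.20 for the 9 retinoid genes, of which 7 rose. In Tretinoin+ICT against ICT, Slc6a4 was the only gene of the 10 lists that passed besides Art2b.

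Tumours of 1 treatment differ in their cell content, and the genes were compared with it by subtracting the mean of each treatment and correlating over the 39 tumours. These values are descriptions, since both sides come from the same library. In bulk RNA, fewer cells of a type and less RNA per cell cannot be told apart. Art2a-ps went with the summed level of 9 T cell markers (r = 0.76, rho = 0.78) and 7 macrophage markers (r = 0.76, rho = 0.75), and against 6 fibroblast markers (r = -0.64, rho = -0.57). Without tumours 14, 33, 63 and 82 these were 0.66, 0.64 and -0.48. Genes most like it included Irf8, a transcription factor of myeloid and B cells (r = 0.87), and Il13ra1 (r = 0.86).

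**Figure D4:**
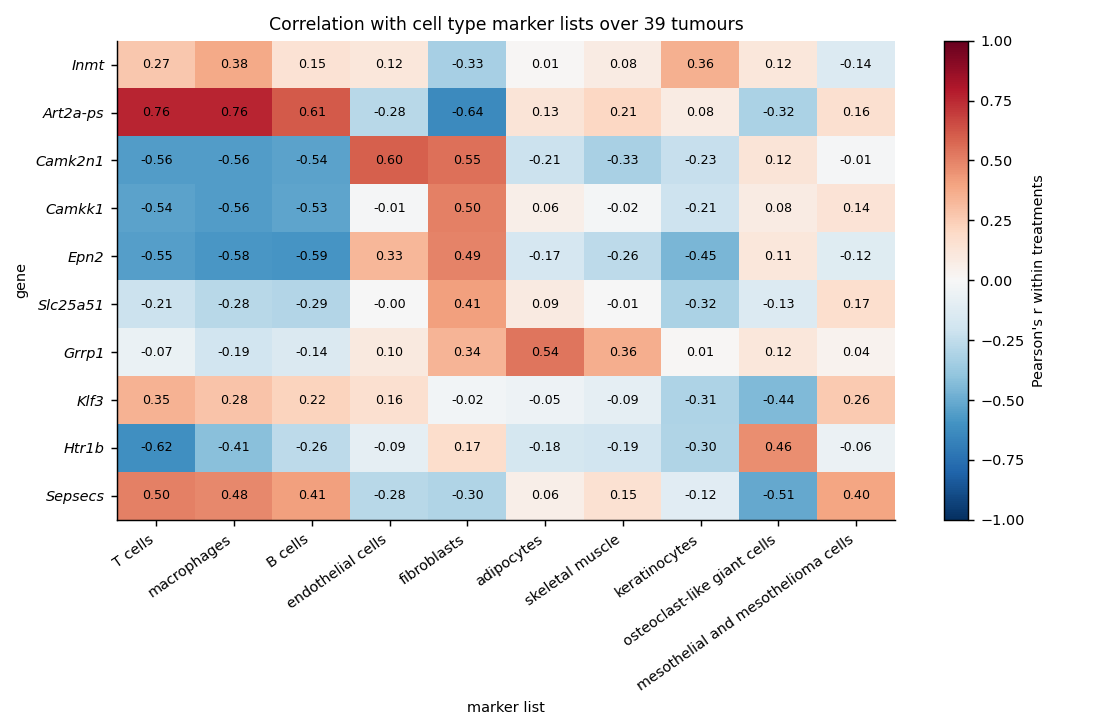
Pearson's r, after the mean of each treatment was subtracted, between each gene (rows) and the summed level of 10 marker lists (columns) over 39 tumours. Red is positive and blue negative. Art2a-ps is positive with T cells and macrophages, at 0.76, where Camk2n1, Camkk1, Epn2 and Htr1b are negative, although Camkk1 with T cells is -0.18 without tumours 14, 33, 63 and 82.

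Camk2n1 went with 7 endothelial markers (r = 0.60, rho = 0.61) and against T cell markers (r = -0.56, rho = -0.49). It also went with fibroblast markers (r = 0.55, rho = 0.51). Without tumours 14, 33, 63 and 82 Camk2n1 had 0.61, -0.39 and 0.42 with the endothelial, T cell and fibroblast markers. Its nearest genes were Adamts7 (r = 0.80), the basement membrane collagen Col4a2 (r = 0.73) and Cdh5, the cadherin of endothelial junctions (r = 0.72), and Cdh5 is itself one of the endothelial markers. Epn2 went against B cell (r = -0.59, rho = -0.54), macrophage (r = -0.58, rho = -0.50) and T cell markers (r = -0.55, rho = -0.49). It went with fibroblast markers (r = 0.49, rho = 0.48). Without tumours 14, 33, 63 and 82 these were -0.46, -0.45, -0.39 and 0.34. The nearest genes of Epn2 were Abhd2 (r = 0.86), Zcchc24 (r = 0.82) and Synj2 (r = 0.79). Htr1b went against T cell markers (r = -0.62, rho = -0.58) and with those of osteoclast-like giant cells (r = 0.46, rho = 0.42). Without tumours 14, 33, 63 and 82 Htr1b had -0.55 and 0.375 with these lists. Dennd2c was nearest to Htr1b (r = 0.75). Sepsecs went with T cell markers (r = 0.50, rho = 0.50) and against those of osteoclast-like giant cells (r = -0.51, rho = -0.47), with Rnf13 nearest (r = 0.72).

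Camkk1 went with fibroblast markers (r = 0.50, rho = 0.37) and against macrophage (r = -0.56, rho = -0.37) and T cell markers (r = -0.54, rho = -0.30). Without tumours 14, 33, 63 and 82 these were 0.35, -0.38 and -0.18. Slc25a51 went with fibroblast markers (r = 0.41, rho = 0.42). Camkk1 was nearest to Kpna4 (r = 0.69), but this fell to 0.54 without the 2 tumours farthest from the median of Kpna4. Klf3 was nearest to Gm37963 (r = 0.72), Inmt to Abi3 (r = 0.65), Slc25a51 to Vapb (r = 0.67) and Grrp1 to Boc (r = 0.60). Grrp1 went with adipocyte markers (r = 0.54, rho = 0.49), with r = 0.55 without tumours 14, 33, 63 and 82. For Inmt the strongest value was with macrophage markers (r = 0.38, rho = 0.44), or r = 0.47 without the 2 farthest tumours. The 10 genes did not vary as a group within treatments. Over their 45 pairs the median r was 0.01, the highest was 0.52, between Camkk1 and Slc25a51, and the lowest was -0.57, between Art2a-ps and Camkk1, which was -0.28 without the 2 farthest tumours.

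The marker lists moved with treatment too. In Tretinoin against PBS, 4 of 7 macrophage markers and 3 of 7 endothelial markers rose, 3 of 6 markers of osteoclast-like giant cells fell, and none of 9 T cell markers passed. In ICT against PBS all 7 macrophage markers rose and 4 of 7 endothelial markers fell, and in Tretinoin+ICT against Tretinoin 3 macrophage markers rose, 2 endothelial markers fell, 2 of 6 fibroblast markers fell (Col1a2 by 0.34 and Pdgfra by 0.33) and both mesothelioma markers tested, Wt1 and Pdpn, rose, by 1.27 and 0.27. Summed endothelial levels ranged from 306.8 to 410.5 CPM in Tretinoin, from 291.6 to 360.6 in Tretinoin+ICT and from 269.1 to 329.1 in PBS tumours. Summed macrophage levels ranged from 2180 to 4705 CPM in Tretinoin, from 2900 to 4440 in Tretinoin+ICT and from 1904 to 3113 in PBS tumours. Summed fibroblast levels had a median of 21440 CPM in Tretinoin and 15850 CPM in Tretinoin+ICT tumours, and the ranges overlapped. Summed levels of osteoclast-like giant cell markers had medians of 752.8 CPM in PBS, 325.1 in Tretinoin, 685.3 in ICT and 400.0 in Tretinoin+ICT tumours. Their ranges overlapped too. The part of these cells in the levels of the 10 genes was not tested.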

How the data were processed

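RNA from 39 AB1-HA tumours was sequenced as single-end reads on a NovaSeq instrument. The authors aligned the reads with HISAT2 2.0.4 to a mouse genome named mm11. SummariseOverlaps gave the raw counts per gene and tumour that the authors deposited. Base calls were converted with bcl2fastq 2.20.0.422, per the labels. Strand mode and the handling of reads with several alignments are not given in the sources used here. Coordinates are from GENCODE M21 (GRCm38), which 36719 of 39676 identifiers (92.55%) and all 10 genes matched with their version. Promoters are from RefSeq.

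The 10 genes and the gene lists were chosen with earlier results of these data known. R 4.3.3 with edgeR 4.0.16 was used for each comparison of 2 groups (TMM, filterByExpr, robust quasi-likelihood test, Benjamini-Hochberg over all genes tested). A gene passed at an adjusted p below 0.05 and was called if its absolute log2 fold change was also at least 1. The code was tested on simulated data. Log2 CPM used a prior count of 2, and genes compared for likeness had a mean log2 CPM of at least 1 (12120 genes). Named were the 10 genes, up to 3 of the most alike for each, up to 3 genes of each list with the largest change, and retinoid genes. Others named in lists, such as Klf2, were chosen after their values were seen. DESeq2 1.42.0, its size factors, other filters, 1 fit of all tumours, series and left-out tumours were alternatives. Some listed genes, Rarb among them, were not analysed here, and a few named by the rule are not reported here. The labels name no separate culture, so p-values measure the spread between tumours.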

Additional observations from a re-analysis of the deposited data

Results flagged for a closer look

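Of 60 sets of tumours (10 genes in 4 treatments, responders and non-responders), 4 held a tumour set far apart from the rest. Chance alone flags about 1 set in 20, so 4 is near that rate. The sets are not independent, since responders and non-responders are also part of the Tretinoin+ICT sets. Inmt was highest in Tretinoin tumour 32, at 24.88 CPM, with the next at 13.73 CPM. In the 4 non-responders, tumour 44 was highest for Slc25a51, at 116.7 CPM against 100.7 for the next, and for Klf3, at 213.3 CPM against 194.2, and tumour 23 was lowest for Htr1b, at 6.244 CPM against 7.466.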

How the results depend on the processing

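The 10 genes kept the direction of each log2 fold change that passed under every alternative run. Genes called numbered 232 in Tretinoin against PBS, 56 in Tretinoin+ICT against ICT, 332 in ICT against PBS, 300 in Tretinoin+ICT against Tretinoin and 0 in responders against non-responders. With no fold change minimum these were 2929, 283, 3007, 3074 and 0. With DESeq2, 364, 137, 479 and 157 genes were called in Tretinoin against PBS, Tretinoin+ICT against ICT, Tretinoin+ICT against Tretinoin and responders against non-responders. Tretinoin+ICT against ICT gave 31 with at least 10 counts in every tumour, 101 with all tumours in 1 fit and 250 without tumours 14, 33, 63 and 82. That omission left 213 in ICT against PBS, and it changed the difference of tretinoin effects of Art2a-ps to -1.487. Single pairs of series hold about 5 tumours a side. They gave 71 (series 7 against 1) and 102 (7 against 5) in Tretinoin against PBS, 8 (2 against 6), 6 (2 against 8), 11 (4 against 6) and 10 (4 against 8) in Tretinoin+ICT against ICT, 9 (6 against 1), 5 (6 against 5) and 100 (8 against 1) in ICT against PBS, and 32 (2 against 3) and 23 (4 against 3) in Tretinoin+ICT against Tretinoin.

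Of the 10 genes, 7 passed in Tretinoin+ICT against Tretinoin, as did 21.4% of all genes. In its pairs of series 1, 3, 2 and 3 passed (2 against 3, 2 against 7, 4 against 3 and 4 against 7). The share of all genes that passed in each pair was not counted. In ICT against PBS the count was 0, and 1 with DESeq2 or all tumours in 1 fit (Art2a-ps) and 1 without tumours 14, 33, 63 and 82 (Htr1b). In responders against non-responders it was 0, and 1 with DESeq2 (Art2a-ps). All tumours in 1 fit called 1 gene there. Leaving out 1 tumour at a time gave 0 to 205 genes called and 0 to 1 of the 10 passed, the highest values coming without responder tumour 43. The causes were not tested. No paired analysis was possible because replicate numbers follow accession order and series are nested in treatment, and series as a block in responders against non-responders left both counts at 0. Counts under about 10 a tumour limit Inmt and Art2a-ps without tretinoin.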
